A study of Mus musculus with 80 samples.

Results

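The genes described are 10 of iron handling in the livers of B6C3F1 males, mice of a hybrid strain: the hepcidins Hamp and Hamp2, the transferrin receptors Tfrc and Tfr2, transferrin (Trf), ferroportin (Slc40a1), the ferritin chains Fth1 and Ftl1, the hepcidin regulator Hfe and the hepcidin inducer Bmp6. They were chosen by name, and all 10 were found among the 18130 gene entries of the table, Tfr2 under its older symbol Trfr2. RNA levels were measured on 80 Illumina bead arrays in 19 groups. Ethinyl estradiol (EE2), a synthetic estrogen, was fed for 7 d at 10, 5, 2.5 or 1 ppm, and prednisone (PRED), a precursor of the glucocorticoid prednisolone, at 25, 5, 2.5 or 1.25 ppm. Androstenedione (A4), an androgen precursor, was given for 7 d by gavage in carboxymethyl cellulose at 50, 20, 10 or 2 mg/kg/day. A further group per compound received the highest dose for 28 d. Every treated group and both gavage controls had 4 arrays, and each of the 2 feed controls, 7 d and 28 d, had 6.

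Hepcidin is a peptide hormone made mainly by hepatocytes that binds ferroportin, the only known iron exporter of mammalian cells, and causes its internalisation and breakdown. Its transcription is driven by BMP and SMAD signalling and, in inflammation, by IL-6 through STAT3. In the BMP branch HFE and TFR2 act in iron sensing, hemojuvelin is a BMP co-receptor and TMPRSS6 is a brake. Mice carry a second hepcidin gene, Hamp2, which is not known to lower plasma iron as Hamp does.

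The 2 hepcidin genes lie 18187 bases apart on chromosome 7, and the sequences before their start sites are shown because the paralogs are near copies there, while called changes were found for Hamp2 and not for Hamp. The difference between the 2 genes' changes was not tested. Hamp lies at chr7:30942368-30944029 and Hamp2 at chr7:30922372-30924181 (RefSeq, build GRCm38.p6), both on the minus strand. The 250 bases upstream of each start site, chr7:30944030-30944279 for Hamp and chr7:30924182-30924431 for Hamp2, are given 5′ to 3′ on the gene's strand. Capitals mark GGCGCC, the core of a BMP responsive element, and TTCNNNGAA, the core of a STAT site, each searched on both strands.
Hamp: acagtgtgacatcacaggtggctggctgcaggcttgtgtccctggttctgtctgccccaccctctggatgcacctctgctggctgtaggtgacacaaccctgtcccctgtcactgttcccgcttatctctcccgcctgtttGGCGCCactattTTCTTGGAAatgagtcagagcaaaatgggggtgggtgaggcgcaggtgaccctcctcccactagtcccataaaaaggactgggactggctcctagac
Hamp2: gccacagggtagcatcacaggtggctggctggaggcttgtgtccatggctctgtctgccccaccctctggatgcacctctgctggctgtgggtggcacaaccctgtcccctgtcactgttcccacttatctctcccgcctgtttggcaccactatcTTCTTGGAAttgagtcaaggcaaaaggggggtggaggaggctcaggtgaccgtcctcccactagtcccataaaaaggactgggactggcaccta
Of 247 aligned bases, 227 were identical (91.9%). Hamp held 1 GGCGCC, starting 109 bases before the start site, where the aligned Hamp2 letters carried the substitution G4A, counted from 1 at the 5′ end of the element. The STAT core stood in both windows. Among 32851 RefSeq windows of the same length, 9.59% held GGCGCC and 7.02% held TTCNNNGAA. Neither window held an estrogen response element, searched as GGTCA and TGACC set 3 bases apart (0.0639% of windows), or a glucocorticoid response element, searched as AGAACA and TGTTCT set 3 bases apart (0.00913%). These letter matches describe the windows and show no binding.

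Of the 10 genes, 8 were detected on all 80 arrays and could be tested. Ftl1 (91.9 to 109 intensity units) was detected on 0 arrays and Bmp6 (92.2 to 105.5) on 1, both close to or below the array medians of 105.7 to 106.3, so neither gave a usable level. Intensities are given in the arbitrary units of the deposited table, with no background subtracted. Changes are differences of group means of log2(intensity + 16), tested with limma in one fit of all groups, two-sided, with Benjamini-Hochberg adjustment over 11352 entries and a threshold of 0.05, and folds are on that scale. Nothing in the labels says that arrays of a group came from separate animals, so p-values measure the spread between these arrays, which may in part be technical. Some arrays of a group share the number in their sample name, and whether they are repeats is not known. The 6 arrays of the 28 d feed control hold 4 distinct numbers, so n counts arrays. Of 9 listed hepatocyte markers, 6, among them Apoa1, Ttr and Fga, were detected on every array. Tdo2 was detected on 78 arrays, Alb on 47, at 93.8 to 419.8, and Tat on 23.

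Slc40a1 (chr1:45908070-45926532, GRCm38.p6) was higher under EE2 at every dose and at both durations and was not called under PRED or A4. At 7 d the 6 feed control arrays ran from 2669 to 4056, with a median of 3140. The 4 arrays at 1 ppm EE2 read 8613, 5653, 9869 and 8719. All 4 lay above every feed control array. At 2.5 ppm the arrays read 7904, 8719, 7515 and 10557. At 5 ppm they read 9584, 7933, 13301 and 9277. At 10 ppm they read 11089, 9499, 11429 and 13573. No array of the EE2 groups overlapped with the controls.

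Relative to the feed control, Slc40a1 rose by 1.31 ± 0.16 (SE) on the log2 scale at 1 ppm (limma adjusted p = 4.7e-09), 1.41 ± 0.16 at 2.5 ppm (2.93e-10), 1.60 ± 0.16 at 5 ppm (2.33e-12) and 1.80 ± 0.16 at 10 ppm (2.31e-14). These are folds of 2.48, 2.65, 3.04 and 3.49. The 4 comparisons share the same 6 control arrays. The slope per dose step, from the control to the top dose, was 0.39 ± 0.04 (adjusted p = 1.41e-13). The top dose set directly against 1 ppm gave 0.49, and this difference missed the threshold (adjusted p = 0.0515). After 28 d the EE2 arrays read 11028, 10979, 11028 and 8264 against 3004 to 4536 (median 3630) in the feed control, a fold of 2.82 (adjusted p = 7.18e-12). The difference between the 28 d and the 7 d change was not called.

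**Figure D1:**
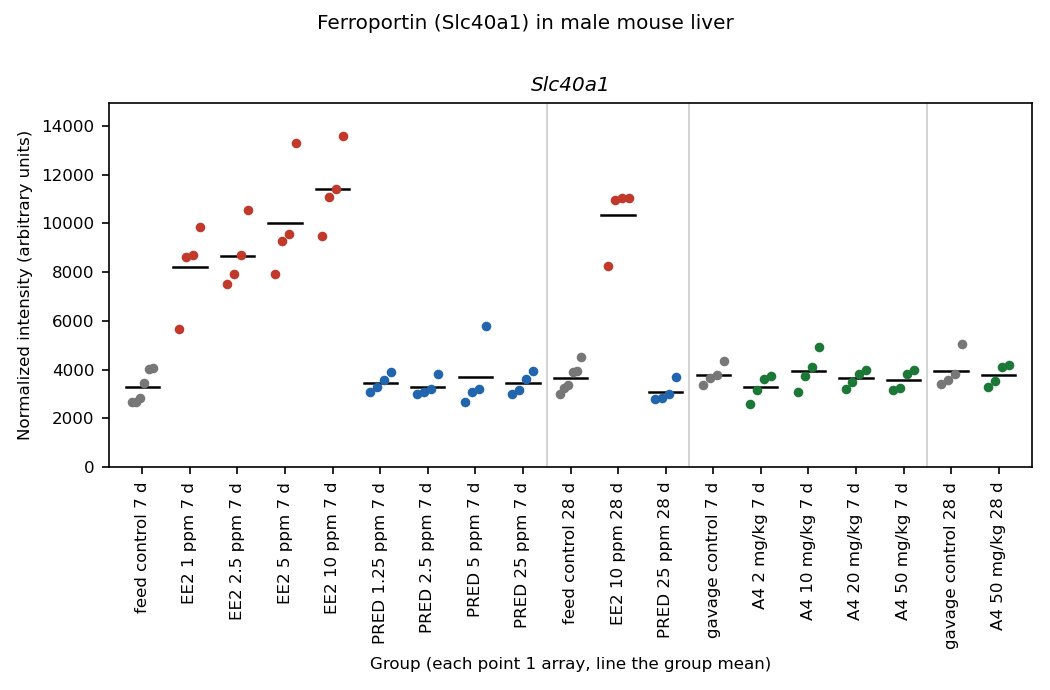
Normalized intensity of Slc40a1 (y axis, arbitrary units) on each of the 80 arrays by group (x axis), with lines at group means; grey points are controls, red EE2, blue PRED and green A4, and vertical lines part route and duration. All EE2 arrays lie between 5653 and 13573, and every control array lies at or below 5053.

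In the order of the 19 group means, the 5 EE2 groups stood at the top (8213 ± 1799 to 11398 ± 1677, SD, n = 4) and the other 14 ran from 3085 ± 423 to 3966 ± 741. Of the 18 pairs of neighbours in that order, 1 pair did not overlap, the 28 d gavage control and 1 ppm EE2. One array of 5 ppm PRED, at 5810, lay above the lowest EE2 array. At the doses that both steroids shared, EE2 exceeded PRED by 1.39 ± 0.17 at 2.5 ppm (adjusted p = 8.56e-09) and 1.48 ± 0.17 at 5 ppm (1.02e-09), with no overlap of arrays.

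Ferroportin is made by hepatocytes and, in quantity, by the macrophages of the liver, and macrophage marker RNA moved on the same arrays. In bulk tissue, more cells of a type and more RNA per cell cannot be told apart. Of 11 tested macrophage and Kupffer cell markers, 1 rose at 1 ppm (13.3% of all entries called) and 0 at 2.5 ppm (14.6%). At 5 ppm 2 rose (24.4%), at 10 ppm 10 (33.3%) and after 28 d 10 (28.6%). In these comparisons 0 fell, by limma's adjusted p. At 2.5 ppm 1 had an unadjusted p under 0.05. The summed intensity of the 11 markers was 4616 to 6625 in the 7 d feed control, 3234 to 30035 at 1 ppm EE2, 2630 to 16797 at 2.5 ppm, 3854 to 28747 at 5 ppm and 5591 to 24671 at 10 ppm. It was 15847 to 18089 after 28 d of EE2 against 3558 to 5842 in the control. The median log2 change of the 11 markers was 1.12 at 10 ppm for 7 d and 1.38 after 28 d. Clec4f and Vsig4 mark Kupffer cells. Vsig4 rose by 1.62 at 10 ppm for 7 d (limma adjusted p = 0.0022) and by 2.14 after 28 d (6.2e-05), and Clec4f by 1.06 (0.0368) and 1.24 (0.0149). On EE2 arrays whose sum lay below every 7 d feed control, Slc40a1 was above every control. On replicate 4 of 2.5 ppm, with the lowest sum, 2630, Slc40a1 read 10557. On replicates 1 and 2 of 5 ppm the sums were 4497 and 3854 and Slc40a1 read 9584 and 7933. On replicates 2 and 4 of 1 ppm they were 3234 and 4607 and it read 5653 and 8719. Within 1 ppm and 5 ppm, Slc40a1 read highest at the highest sum, 9869 at 30035 and 13301 at 28747. At 2.5 ppm it read 8719 at the highest sum, 16797. At 10 ppm it read 11089, 13573, 11429 and 9499 at sums of 24671, 23717, 15825 and 5591. The part of macrophages in the Slc40a1 level was not tested.

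Hfe encodes the MHC class I-like protein whose loss causes hereditary hemochromatosis. It lies at chr13:23702034-23710854. The 7 d feed control read 344 to 395, with a median of 358.7. At 10 ppm EE2 the arrays read 632, 433, 512 and 625, all above the controls. At 2.5 ppm they read 488, 553, 499 and 354 and at 5 ppm 379, 358, 633 and 447, and both groups overlapped with the controls. The log2 changes were 0.56 ± 0.10 at 10 ppm (limma adjusted p = 8.2e-06), 0.35 ± 0.10 at 2.5 ppm (0.00972) and 0.27 ± 0.10 at 5 ppm (0.0342), while 1 ppm gave 0.20 and was not called. After 28 d the EE2 arrays read 519, 514, 456 and 471 against 354 to 440 (median 375), a change of 0.33 (adjusted p = 0.00862) with no overlap.

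Several Hfe calls ended when 1 array or 1 setting changed. Without replicate 3 of 5 ppm, on which the macrophage sum was 28747, the adjusted p at 5 ppm was 0.481. Without replicate 2 of 2.5 ppm, with a sum of 16797, it was 0.0979 at 2.5 ppm. Hfe was within the 7 d feed control range on the arrays with low macrophage sums named above. It read 354 on replicate 4 of 2.5 ppm and 379 and 358 on replicates 1 and 2 of 5 ppm. On replicates 2 and 4 of 1 ppm it read 369 and 354. On EE2 arrays with sums inside the 7 d control range, Hfe was above every 7 d feed control. It read 488 on replicate 1 of 2.5 ppm (sum 5919). On replicate 4 of 5 ppm and replicate 2 of 10 ppm (sums 5591 and 5591) it read 447 and 433. The part of macrophages in the Hfe level was not tested. At matched doses Hfe under EE2 exceeded PRED by 0.42 at 2.5 ppm (limma adjusted p = 0.00599) and 0.39 at 5 ppm (0.00718). The adjusted p became 0.055 without replicate 2 of 2.5 ppm EE2 and 0.146 without replicate 3 of 5 ppm EE2. The 28 d call ended when arrays of 1 sample-name number were averaged (0.0846). Under 25 ppm PRED all 4 Hfe arrays lay below all controls at 7 d (276 to 326) and at 28 d (309 to 346), but the changes, -0.24 and -0.25, were not called (adjusted p = 0.156 and 0.105).

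Tfrc (chr16:32608896-32632794) encodes the first transferrin receptor, through which cells take up transferrin-bound iron, and its messenger is stabilised when cell iron is low. The 7 d feed control ran from 204 to 383, with a median of 263, and the arrays of 10 ppm EE2 read 494, 433, 396 and 522. These 4 arrays lay above all 6 controls, and the log2 change was 0.71 ± 0.20 (limma adjusted p = 0.00433, a fold of 1.63). The slope over doses was 0.13 ± 0.05 (adjusted p = 0.0205), a call that ended without replicate 4 of 10 ppm (0.0619) or replicate 2 of the control (0.0511). The changes at 1, 2.5 and 5 ppm were 0.53, 0.23 and 0.43 (adjusted p = 0.0653, 0.514 and 0.11). With chip as a block the change at 1 ppm was 0.68 and was called (0.0223), and both within-chip differences were positive. After 28 d the EE2 arrays read 449, 351, 287 and 331, inside the control range of 212 to 481, and the change was 0.03. The 28 d minus 7 d difference was -0.67 (adjusted p = 0.205), so a difference between durations was not shown. Erythroid precursors carry much Tfrc. The summed level of 5 erythroid markers was 1343 to 10816 at 10 ppm EE2 for 7 d against 10080 to 16343 in the control. It was 2946 to 18394 at 1 ppm, 2612 to 7792 at 2.5 ppm and 1443 to 8585 at 5 ppm. After 28 d it was 2525 to 5701 against 6596 to 13738. At 10 ppm 2 of the 5 markers were lower at 7 d (33.3% of all entries called) and 1 at 28 d (28.6%). Alas2 was lower by 2.68 at 7 d (log2, limma adjusted p = 2.3e-15). The part of these cells in the Tfrc level was not tested.

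Tfr2, the liver's transferrin sensor, was not called in any of the 27 comparisons, 3 of which had an unadjusted p under 0.05. Under EE2 its log2 changes were -0.45, -0.33, -0.49 and -0.34 at the 4 doses for 7 d and -0.37 at 28 d (limma adjusted p from 0.0692 to 0.317). At 5 ppm the EE2 arrays read 735, 1240, 1329 and 1060, against 1419, 2551, 1274 and 1500 under 5 ppm PRED. That difference, -0.60 ± 0.23, missed the threshold (limma adjusted p = 0.0526) and passed it under 3 other settings.

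**Figure D2:**
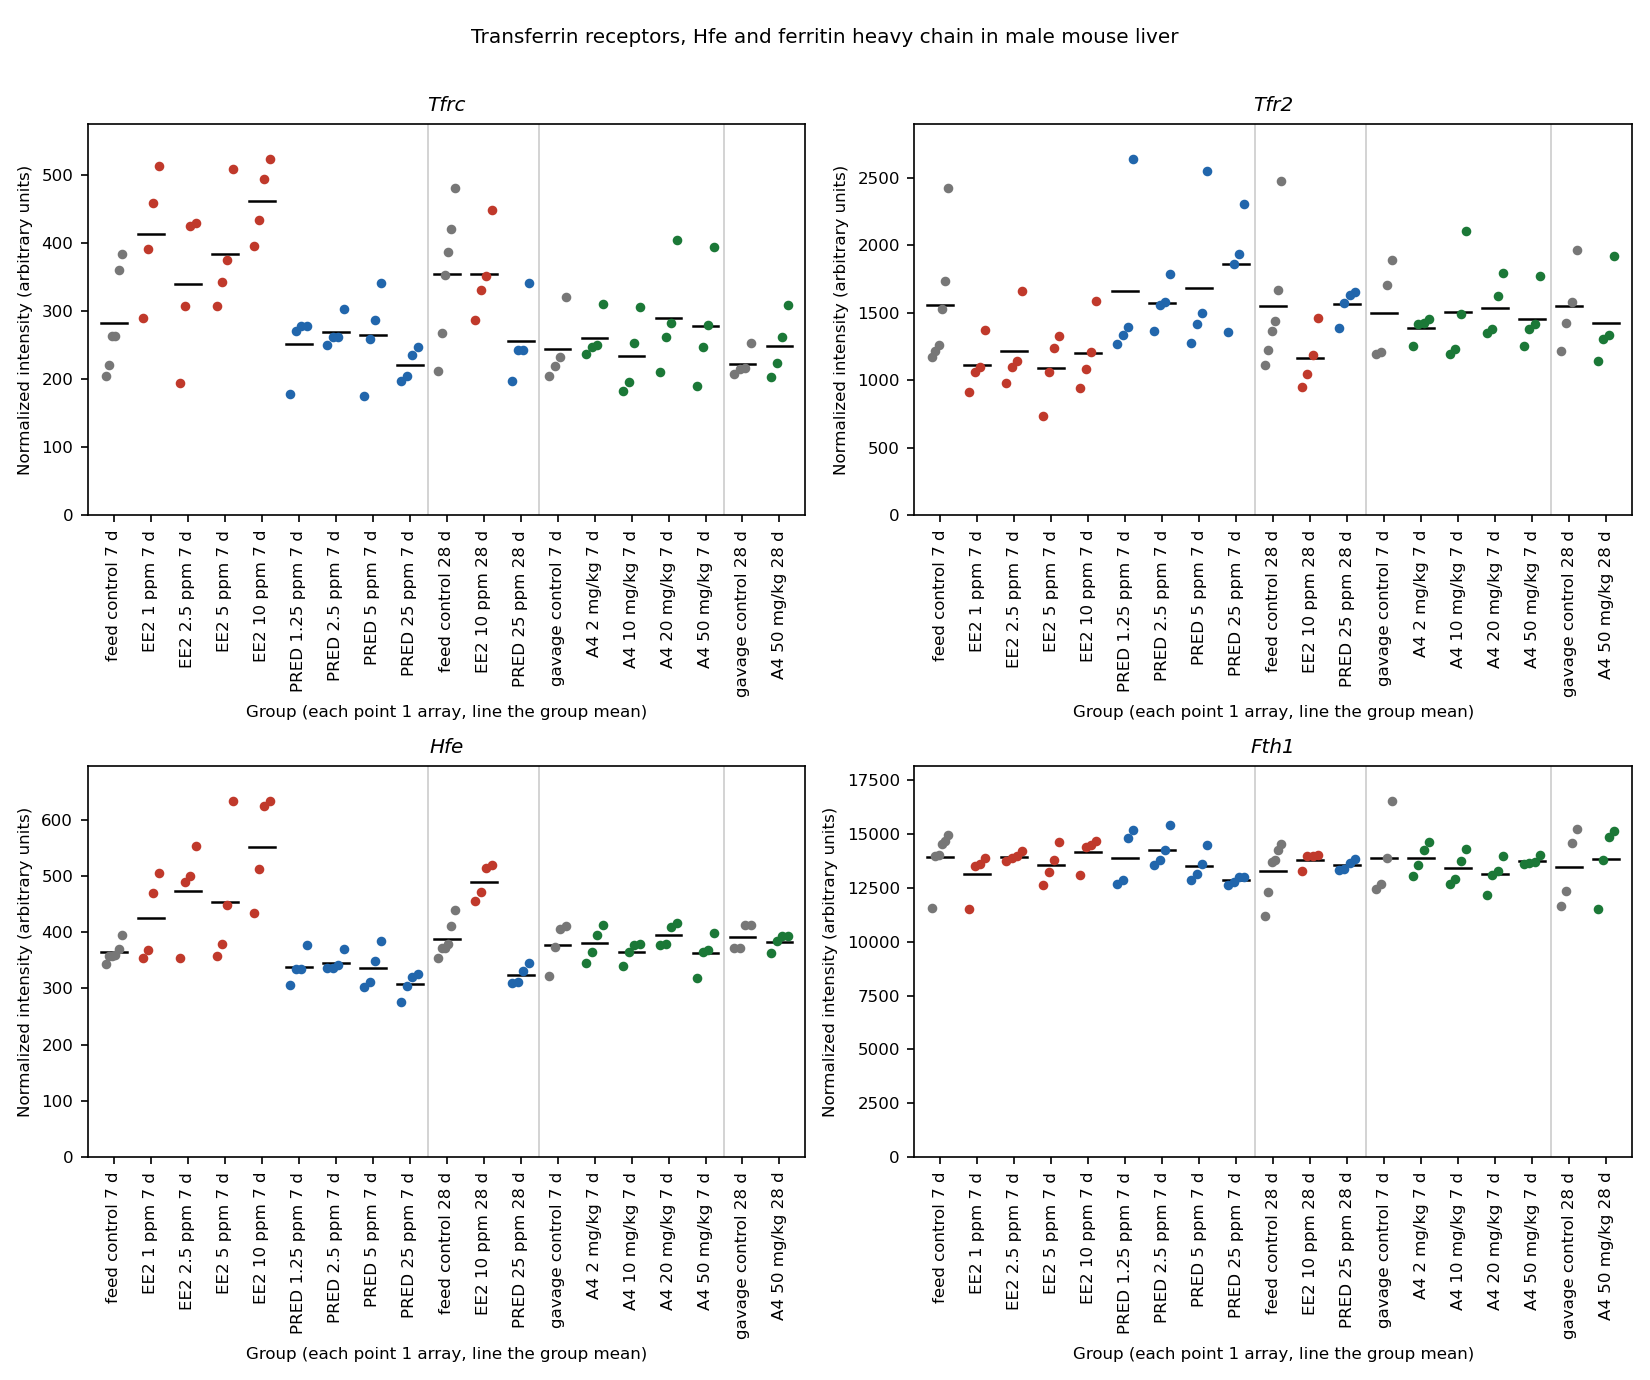
Normalized intensity (y axes, arbitrary units) of Tfrc, Tfr2, Hfe and Fth1 on each array by group (x axes), with lines at group means and colours for control (grey), EE2 (red), PRED (blue) and A4 (green). Tfrc and Hfe lie above all 7 d feed control arrays at 10 ppm EE2 for 7 d, and Fth1 stays between 11166 and 16510 in every group.

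Hamp2 was the gene that varied most, from 109 to 9969 over the 80 arrays, and its pooled SD between arrays of a group was 1.06 on the log2 scale, against 0.48 for Hamp. The 7 d feed control alone ran from 364 to 4336, with a median of 1880. At 25 ppm PRED for 7 d the arrays read 555, 125, 195 and 118.01. Of these, 3 lay below every control and 1 within the control range. At 25 ppm for 28 d they read 110.01, 114.04, 172 and 109, against 1614 to 5548 (median 3728), with no overlap. The 7 d arrays at 125 and 118.01 and the 28 d arrays at 110.01, 114.04 and 109 were near the array medians. That is the level of background, which compresses a fold. Under 25 ppm PRED the macrophage sum was 2919 to 4169 at 7 d, against 4616 to 6625 in the feed control. At 28 d it was 3693 to 4348 against 3558 to 5842. By limma 0 of 11 markers were called at each duration, where 6.01% and 9.89% of all entries were called. At an unadjusted p under 0.05 there were 3 and 1.

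Relative to its control, Hamp2 fell by 3.05 ± 0.68 (SE, log2; limma adjusted p = 0.00174, a fold of 8.27) at 7 d and fell by 4.61 ± 0.68 (adjusted p = 5.32e-07, a fold of 24.5) at 28 d under 25 ppm PRED. The slope over PRED doses was -0.64 ± 0.15 per step (adjusted p = 0.00411). The lower doses were uneven. At 1.25 ppm the arrays read 1560, 440, 822 and 246, at 2.5 ppm 5327, 3450, 1595 and 171, and at 5 ppm 807, 422, 261 and 615. Their changes of -1.52, -0.23 and -1.85 were not called (adjusted p = 1, 0.999 and 0.231). The 28 d minus 7 d difference was -1.57 (95% interval -3.48 to 0.35, adjusted p = 0.384).

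EE2 at its top dose also lowered Hamp2, less steadily. At 10 ppm for 7 d the arrays read 565, 742, 474 and 342, of which 1 lay below and 3 within the control range, and the change was -1.78 ± 0.68 (limma adjusted p = 0.0352). Leaving out any 1 of 6 arrays ended this call, with an adjusted p of up to 0.107, as did dropping the filter or fitting just these groups. After 28 d the arrays read 1042, 987, 577 and 1079, all below the controls, a change of -1.91 ± 0.68 (adjusted p = 0.0259) that ended without replicate 3 of EE2 (0.0845) or of the control (0.0542), and when arrays of 1 sample-name number were averaged (0.0866). The summed level of 9 hepatocyte markers was 54058 to 64160 at 10 ppm for 7 d against 63947 to 67095 in the control. By limma's test 1 marker was lower there (33.3% of all entries called). At 28 d the sum was 53391 to 66390 against 64572 to 73865, with 4 lower (28.6%). The part of this shift, and of the macrophage markers above, in the Hamp2 level was not tested. At 1 and 2.5 ppm the Hamp2 changes were 0.48 and 0.11. At 5 ppm the arrays read 452, 3312, 367 and 738, all within the control range, and the change was not called. The slope over doses was -0.52 ± 0.15 (limma adjusted p = 0.0065). Set directly against 1 ppm, whose arrays read 2236, 3203, 1274 and 4252, 10 ppm was lower by 2.25 on the log2 scale (adjusted p = 0.0381), a call that ended without any 1 of 6 arrays, with chip as a block (0.0934), without the filter and in a fit of just these groups. At 2.5 and 5 ppm EE2 minus PRED gave 0.35 (95% interval -1.13 to 1.83) and 0.71 (-0.77 to 2.19), and neither was called.

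Hamp, the iron-regulating hepcidin, was among the brighter genes and was not called in any of the 27 comparisons, 1 of which had an unadjusted p under 0.05. Its 7 d feed control ran from 4022 to 9584 (median 6874) and its 28 d feed control from 3753 to 8643 (median 6227). Under 25 ppm PRED, where Hamp2 fell, Hamp read 8543, 7869, 6464 and 7254 at 7 d and 7999, 6716, 9499 and 6189 at 28 d, all within the range of their controls except 1 array at 28 d above it. The changes were 0.19 (95% interval -0.43 to 0.80) and 0.31 (-0.31 to 0.92). Under 10 ppm EE2 it read 3457, 9584, 6484 and 4226 at 7 d, and 5053, 4372, 4083 and 5748 at 28 d. Those changes were -0.26 (-0.88 to 0.36) and -0.34 (-0.96 to 0.27). Of these 8 arrays, 1 at 7 d lay below its controls and the other 7 overlapped with them. No 2 neighbours in the order of the 19 group means, from 3807 ± 1916 at 20 mg/kg A4 to 8127 ± 1570 at 2.5 ppm EE2, were without overlap.

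**Figure D3:**
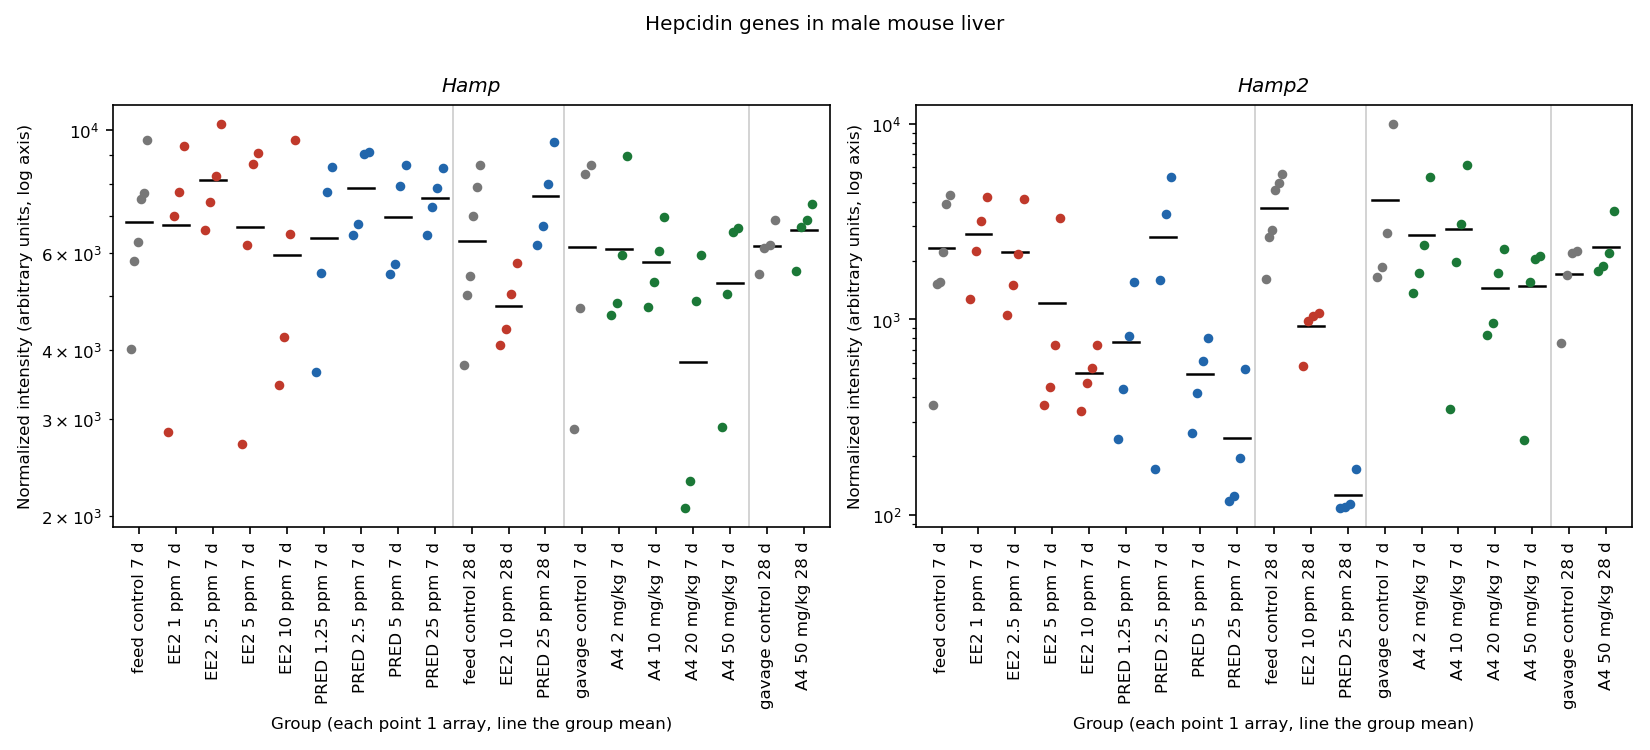
Normalized intensity (y axes, arbitrary units, log scale) of Hamp (left) and Hamp2 (right) on each array by group (x axes), with lines at group means and colours for control (grey), EE2 (red), PRED (blue) and A4 (green). Hamp2 lies at 109 to 172 after 28 d of 25 ppm PRED against 1614 to 5548 in its control, and Hamp stays between 2071 and 10247 in all groups.

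As a description, the log2 levels of Hamp and Hamp2 had a Pearson r of 0.52 over the 80 arrays after group means were removed and of -0.21 over the 19 group means. The probe sequences were not used here, so cross-hybridisation between these paralogs was not tested. The 5 other genes whose group means followed Hamp2 most closely were Inmt (r = 0.94), Maob (0.90), Adh1 (0.90), Sult1c2 (0.89) and Il18 (0.89), over 19 groups. For Tfrc they were Txndc5 (0.91), Pigz (0.90), Lrp12 (0.90), Lrrc8c (0.90) and Anln (0.89), of which Pigz, Lrrc8c and Anln had group means of 97.2 to 116.3, near background. For Hamp the nearest were Tatdn2 (0.78), 4930515G01Rik (0.76), Zc3h10 (0.74), Trim3 (0.73) and Fam174c (0.72). These groups share controls, chips and scaling.

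For iron storage and plasma transport no call was made. Trf, which carries iron in plasma, read 13401 to 17847 and Fth1, the ferroxidase chain of ferritin, 11166 to 16510. Both were near the top of a scale whose highest value was 19760.9, where saturation could hide a change, so the absence of calls does not show stable levels. Neither was called in any comparison. Fth1 had 0 of 27 comparisons with an unadjusted p under 0.05 and Trf had 4. The largest Trf change against a treated group's control was 0.15, at 20 mg/kg A4.

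**Figure D4:**
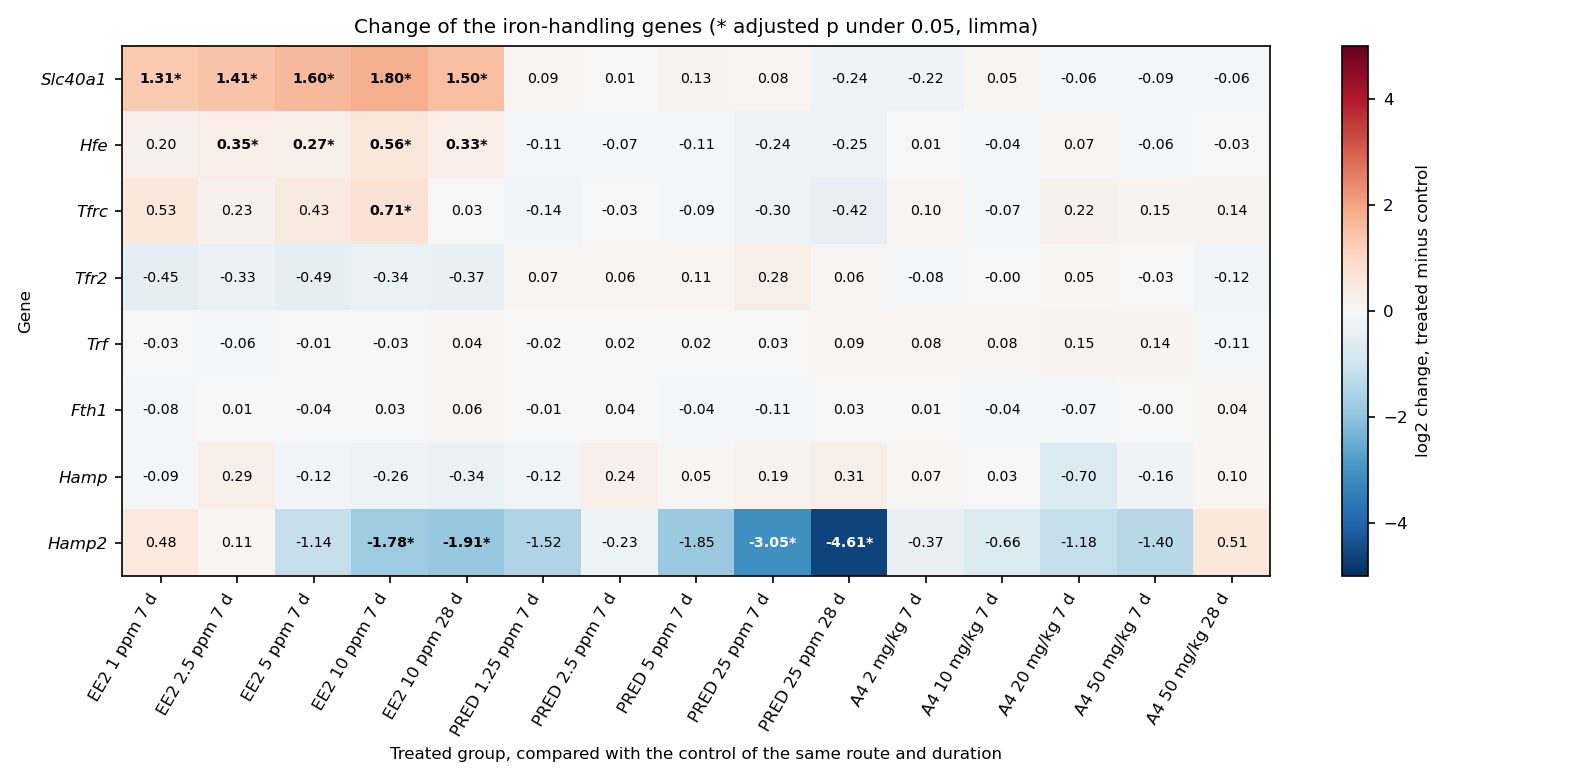
log2 change (colour and printed value, treated minus control) of the 8 tested genes (rows) in the 15 comparisons of a treated group with the control of its route and duration (columns), with a star where limma's adjusted p was under 0.05. Stars stand for Slc40a1 in all 5 EE2 columns, for Hfe in 4, for Tfrc in 1 and for Hamp2 at both durations of the top EE2 and PRED doses.

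Counted over the 8 tested genes, 1 was called at 1 ppm EE2, where 13.3% of all entries were called, 2 at 2.5 ppm (14.6%), 2 at 5 ppm (24.4%), 4 at 10 ppm (33.3%) and 3 after 28 d (28.6%). For 25 ppm PRED it was 1 at 7 d (6.01%) and 1 at 28 d (9.89%). The slope over doses called 4 for EE2 (33.9%) and 1 for PRED (7.31%), EE2 minus PRED called 2 at 2.5 ppm (9.85%) and 2 at 5 ppm (18%), and 10 ppm against 1 ppm called 2 (10.7%). Counts this small do not set the 8 genes apart from the rest. The change between durations called 0 for EE2 (2.55%), PRED (1.42%) and A4 (0.00881%), with 2 of 24 tests at an unadjusted p under 0.05. Arrays of the 2 groups did not overlap for 1 gene at 1 ppm EE2 (8.25% of all entries), 1 at 2.5 ppm (11.3%), 1 at 5 ppm (12%), 3 at 10 ppm (18.8%) and 3 after 28 d (26%). For 25 ppm PRED this held for 1 at 7 d (9.58%) and 2 at 28 d (13%), for EE2 minus PRED for 1 at 2.5 ppm (12.7%) and 1 at 5 ppm (12.3%), and for 10 ppm against 1 ppm for 1 (7.45%). The median log2 change of the 8 genes was -0.0038 at 10 ppm EE2 for 7 d against -0.0014 over all entries.

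A4 changed none of the 8 genes by limma's test. In its 5 comparisons with the gavage control, 0 of 40 tests passed, where 0% of all entries did, and 2 had an unadjusted p under 0.05, both at 20 mg/kg. For Hamp2 the changes from the lowest to the highest dose were -0.37, -0.66, -1.18 and -1.40, each with an adjusted p of 0.997 or 1. The gavage control held 1 array at 9969 against 1657 to 2762 on the other 3. After 28 d of 50 mg/kg the Hamp2 change was 0.51. The 3 lower PRED doses likewise called 0 genes in 24 tests, with 2 at an unadjusted p under 0.05, and called 0.0264%, 0% and 0.599% of all entries. Without any compound, the gavage and feed controls and the 2 feed controls gave 0 calls in 24 tests and 2 at an unadjusted p under 0.05, where the 28 d and 7 d feed controls differed in 1.02% of all entries, and Trf did not overlap between the 28 d gavage and feed controls (1.2% of entries), at a change of 0.13.

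Among other genes of the pathway, 14 of BMP signalling to hepcidin were tested. Under EE2, 1 rose and 1 fell at 10 ppm for 7 d, where 33.3% of all entries were called, and 3 rose and 3 fell after 28 d (28.6%), by limma's adjusted p. Id1, a SMAD target, rose by 1.42 on the log2 scale at 7 d (mean 622 ± 236, SD, n = 4, against 214 ± 41, n = 6; adjusted p = 1.46e-05) and by 1.45 at 28 d (8.9e-06). Tmprss6, the protease that cuts hemojuvelin and so lowers hepcidin, fell by 1.52 (370 ± 95 against 1114 ± 414; adjusted p = 2.93e-06) and by 1.70 (1.93e-07). Atoh8, another BMP-responsive factor, rose by 0.52 at 28 d (5.9e-09), and Neo1, a hemojuvelin partner, fell by 0.27 (0.0112). The median change of the list was -0.000047 at 7 d and -0.035 at 28 d, against -0.0014 and -0.0080 over all entries. PRED at 25 ppm called 0 of the 14 at both durations, where 6.01% and 9.89% of all entries were called. By limma 1 at 7 d and 2 at 28 d had an unadjusted p under 0.05.

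In the inflammatory branch, 1 of 8 genes rose at 10 ppm EE2 for 7 d, where 33.3% of all entries were called. It was Stat3, the transcription factor downstream of IL-6, which rose by 0.74 (limma adjusted p = 0.00205). After 28 d 0 were called (28.6% of all entries), with 1 at an unadjusted p under 0.05. At each of 1, 2.5 and 5 ppm for 7 d, 0 rose and 1 fell by limma's adjusted p. There 13.3%, 14.6% and 24.4% of all entries were called. Under 25 ppm PRED Il1r1, an IL-1 receptor, passed the test at both durations but was detected on 0 of 4 PRED arrays at 7 d and 1 of 4 at 28 d, so it gave no usable change. Jak2, a kinase of the IL-6 receptor, fell by 0.16 at 28 d (0.032) and was detected on 2 of 4 PRED and 2 of 6 control arrays. Of 5 genes of IRP regulation and ferritin turnover, 1 was called under 10 ppm EE2 at 7 d and 1 at 28 d (33.3% and 28.6% of all entries). Both calls were Pcbp1, an iron chaperone of ferritin, which rose by 0.46 (limma adjusted p = 0.0102) and 0.42 (0.0205). Under 25 ppm PRED 1 was called at 7 d and 1 at 28 d (6.01% and 9.89% of all entries). Ncoa4, the receptor that delivers ferritin to lysosomes, rose by 0.57 (0.00205) at 7 d. Ireb2, the gene of IRP2, fell by 0.25 (0.0231) at 28 d.

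Of 10 iron transport and reduction genes, 3 rose and 1 fell after 28 d of PRED, where 9.89% of all entries were called. Scara5, a receptor for ferritin, rose most, from 458 ± 207 (SD, n = 6) to 2389 ± 329 (n = 4), by 2.46 on the log2 scale (limma adjusted p = 6.13e-06), and by 1.38 at 7 d (0.0238). Slc39a14, an importer of non-transferrin iron, rose by 0.33 (7.65e-05), and Slc11a2, the divalent metal transporter, by 0.28 at 28 d (0.0156) and 0.30 at 7 d (0.016). Slc39a8 was above background on no PRED array and was at least 1.05-fold lower. Under EE2, 1 gene fell at 7 d (33.3% of all entries called), and 1 rose and 1 fell at 28 d (28.6%). The falling gene was Slc25a37, mitoferrin 1, at -0.33 (0.00506) and -0.76 (1.41e-09), and the rising one was Scara5 (1.18, 0.019).

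Of 8 heme iron genes, 2 were called higher and 1 lower at 10 ppm EE2 for 7 d and likewise at 28 d, where 33.3% and 28.6% of all entries were called, so the counts do not set the list apart. Slc46a1, a heme and folate carrier, fell by 0.93 (limma adjusted p = 6.53e-12) and fell by 0.65 (1.3e-07), and Slc48a1, which moves heme out of lysosomes, rose by 0.79 at 7 d (0.000333). The other higher call at 7 d and at 28 d was Cd163, the haptoglobin-hemoglobin scavenger of macrophages, which was detected on 1 of 4 and 0 of 4 EE2 arrays and so gave no usable change. Hp, haptoglobin, rose by 0.24 at 28 d (0.0332). Alas2, the heme synthesis gene of red cell precursors and 1 of 5 erythroid markers tested, fell by 2.68 at 7 d and fell by 3.73 at 28 d (2.86e-22), and Hba-a1 fell by 1.37 at 7 d (0.0146). PRED at 25 ppm called 0 of the 8 heme genes, with 1 and 2 at an unadjusted p under 0.05 at 7 and 28 d by limma. It also called 0 of the 5 erythroid markers, with 2 and 1. At these durations 6.01% and 9.89% of all entries were called. A4 at 50 mg/kg called 0 genes in each of these 5 pathway lists by limma, where 0% of all entries were called. At an unadjusted p under 0.05 there was 1 gene at 7 d and 1 at 28 d.

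**Figure D5:**
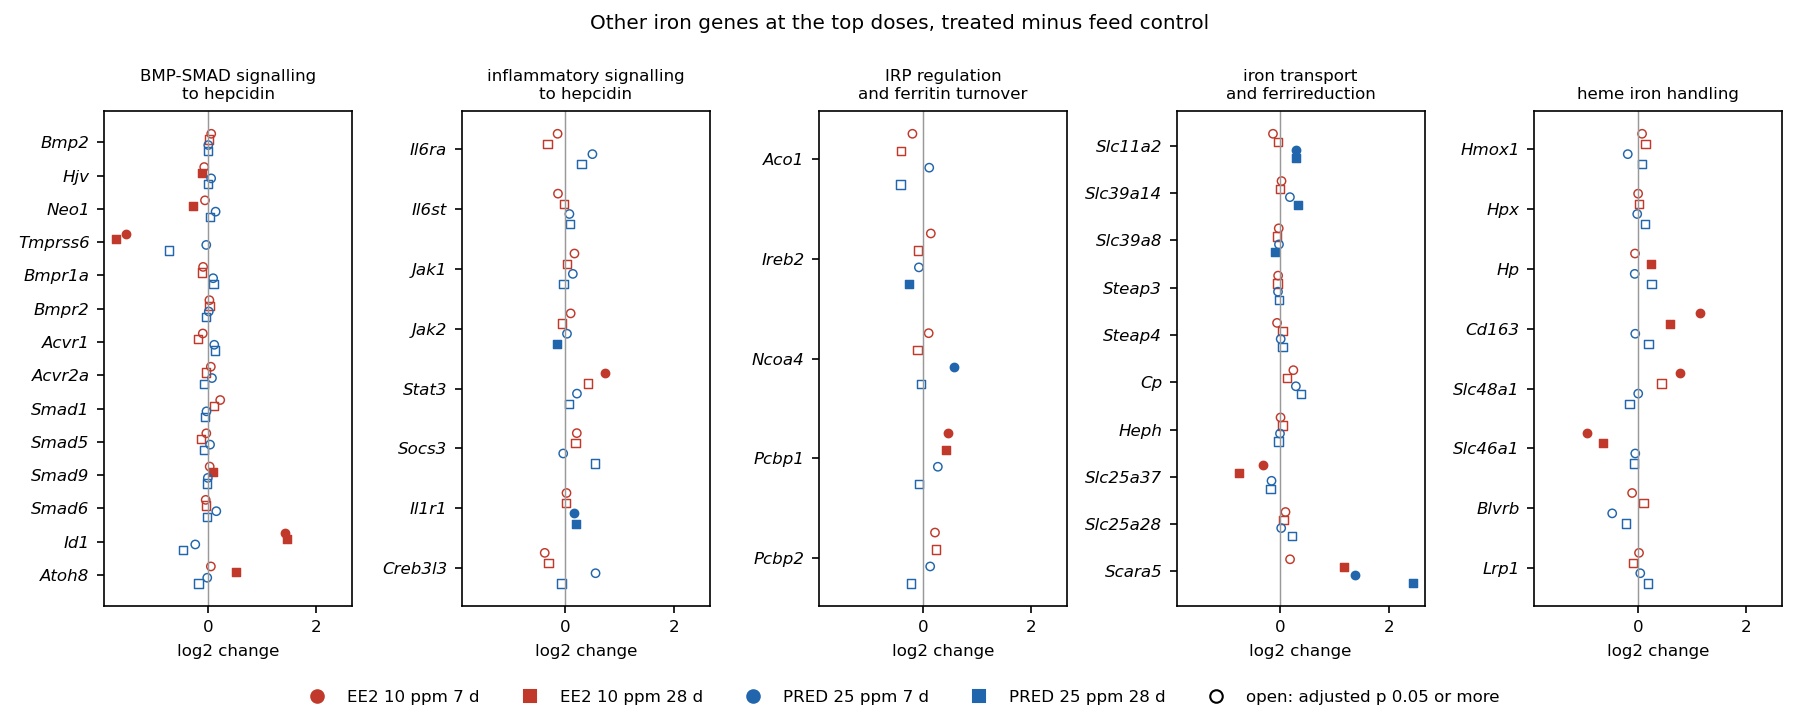
log2 change (x axes, treated minus feed control) of each tested gene (y axes) in 5 lists of iron genes, for 10 ppm EE2 (red) and 25 ppm PRED (blue) at 7 d (circles) and 28 d (squares), with filled symbols where limma's adjusted p was under 0.05. Tmprss6 at -1.52 and -1.70 and Id1 at 1.42 and 1.45 under EE2, and Scara5 at 1.38 and 2.46 under PRED, lie farthest from 0, and Cd163 and Il1r1 are plotted although mostly not detected.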

How the data were processed

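RNA was purified with Trizol and RNeasy columns and biotin-labelled as cRNA, per the labels' protocols. The submitters' processing notes name GenomeStudio. The authors deposited 1 normalized intensity per gene symbol and array, with a detection p-value beside it. The sources used here do not give the normalization method. Array medians of 105.7 to 106.3 show that the deposited intensities were put on 1 scale. The members and lists were chosen with earlier results of these data known. From 18138 entries, 8 control entries were left out and 2704 older symbols were updated through RefSeq (GRCm38.p6). An entry was tested when 4 or more arrays had its detection p below 0.05, which 11352 entries met. Each array detected 7735 to 9321 entries, and the number of arrays limits the precision. Values were analysed as log2(intensity + 16) with limma 3.58.1 in R 4.3.3, with 1 mean per group, moderated by eBayes, and 27 contrasts. The procedure was tested on simulated data. The added 16 makes a fold of a dim gene smaller than its true fold. Motifs were searched in 250-base windows, and after a first search a TATA motif was dropped and the glucocorticoid element's first letter was changed; both had no match. Dose slopes used scores from 0 to 4. The arrays sat on 10 chips of 6 to 8 groups each. Each sample name holds a number of unstated meaning, and 19 arrays share 9 numbers. Pairs of 1 number within a group had a median r of 0.993 (10 pairs, 0.971 to 0.996). Other pairs had a median of 0.982 (122 pairs, 0.930 to 0.996). The ranges overlap, so r does not show whether arrays of 1 number are repeats of 1 animal. In the feed controls 1 number stands on an array of each duration, so a shared number need not mean 1 animal. There the letters after a shared number also differ. The fit treated arrays of 1 number as separate and an alternative averaged them. From each of 11 pathway and cell type lists (109 genes, 94 tested) at most 4 called genes with the largest change were named for the top doses. Clec4f was named outside this rule, as a Kupffer cell marker. For Hamp, Hamp2 and Tfrc the 5 genes with the highest r were named. Alternatives were pseudocounts of 1 and 64, no filter, a detection p under 0.01, only the groups compared, chip as a block, arrays of 1 number averaged, trend and robust moderation, centring on detected entries, and each array left out.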

Additional observations from a re-analysis of the deposited data

Results flagged for a closer look

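For 8 genes in 19 groups of 4 or 6 arrays, 10 combinations of gene and group had 1 array far from the rest by Dixon's criterion, and chance gives about 1 in 20 groups. For Hamp2 these were replicate 3 of the 7 d gavage control at 9968.7 (others 1656.5 to 2762.4), replicate 2 of 5 ppm EE2 at 3311.7 (367.07 to 737.7) and replicate 3 of 25 ppm PRED for 28 d at 172.29 (108.56 to 114.04). For Slc40a1, replicate 4 of 10 ppm EE2 for 28 d stood low at 8264.1 (10979 to 11028), still above every control. For Tfr2, replicate 4 of 1.25 ppm PRED stood high at 2636.8 (1267.7 to 1392.5), and for Tfrc, replicate 3 of the same group stood low at 178.74 (270.47 to 278.6). For Hfe, replicate 1 of 2.5 ppm PRED read 370.17 (335.82 to 340.9). For Fth1, replicate 2 of the 7 d feed control read 11573 (13975 to 14941), replicate 2 of 1 ppm EE2 11535 (13521 to 13881) and replicate 1 of 10 ppm EE2 for 28 d 13257 (13975 to 14017).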

How the results depend on the processing

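No paired analysis was possible because the labels give no replicate numbers; chip, known from the titles, entered as a block instead. Slc40a1 kept its call in all its called comparisons under all 9 other settings and with each array left out, as did Hamp2 under 25 ppm PRED at both durations. No member's called change turned its direction. Counts of called members moved as follows. With chip as a block, 2 in place of 1 were called at 1 ppm EE2 (Tfrc gained), 1 in place of 2 at 5 ppm (Hfe lost), and 0 in place of 2 for 10 ppm against 1 ppm (Hamp2 and Hfe lost). When a fit held just the groups being compared, 1 was called at 2.5 and at 5 ppm EE2 and for EE2 minus PRED at both doses, 2 under 25 ppm PRED at 7 d and 2 at 28 d, and 0 for 10 ppm against 1 ppm. Without the filter, 1 was called at 5 ppm EE2 and 1 for 10 ppm against 1 ppm. With arrays of 1 number averaged, 1 was called at 5 ppm EE2 and 1 in place of 3 at 28 d (Hamp2 and Hfe lost). With centring on detected entries, 3 were called under 25 ppm PRED at 28 d (Tfrc and Hfe gained). Smaller moves were 3 in place of 4 at 10 ppm EE2 without the filter or with just the groups compared (Hamp2 lost), 3 or 5 in place of 4 for the EE2 slope (Tfrc lost with just the groups compared, Fth1 gained by centring), and 3 in place of 2 at 5 ppm EE2 (Tfrc, by centring), for EE2 minus PRED at 5 ppm (Tfr2 under 3 settings, Tfrc by centring) and for 10 ppm against 1 ppm (Slc40a1 under 2 settings). Leaving out 1 array gave 1 to 2 calls at 1 ppm and at 2.5 ppm EE2, 1 to 3 at 5 ppm, 3 to 4 at 10 ppm, 2 to 3 at 28 d, 3 to 4 for the EE2 slope, 1 to 2 for EE2 minus PRED at 2.5 ppm, 2 to 3 at 5 ppm and 0 to 3 for 10 ppm against 1 ppm. Centring on detected entries moved the median of all entries by 0.115 at 10 ppm EE2 for 7 d, 0.106 at 28 d and -0.103 under PRED at 28 d. Counts of all called entries also moved. Fits of just the groups compared called 641 in place of 1515 at 1 ppm EE2, 1160 in place of 2770 at 5 ppm, 2529 in place of 3853 for the EE2 slope, 443 in place of 1118 and 231 in place of 2048 for EE2 minus PRED at 2.5 and 5 ppm, and 0 in place of 1220 for 10 ppm against 1 ppm, which chip as a block took to 747. Averaged arrays called 330 in place of 682 and 530 in place of 1123 under 25 ppm PRED at 7 and 28 d and 424 in place of 830 for its slope. Centring called 4763 in place of 2770 at 5 ppm EE2, 5999 in place of 3783 at 10 ppm, 4878 in place of 3248 at 28 d and 3570 in place of 1123 under PRED at 28 d, and the share of calls that were higher went from 52.6% to 84.5%, 54.3% to 84%, 51.7% to 82.3% and 46.9% to 9.69%. The causes were not tested. Signal over background limits Ftl1, Bmp6 and the lowest Hamp2 levels.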

Other observations

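Hamp and the macrophage marker sum can be set side by side on each array of 10 ppm EE2 for 7 d. Hamp read 3457 at a sum of 24671, 4226 at 23717, 6484 at 15825 and 9584 at 5591. At 5 ppm EE2 Hamp read 2707 at a sum of 28747, against 9082, 8685 and 6189 at sums of 4497, 3854 and 5591. At 1 ppm it read 2846 at a sum of 30035, against 6978, 9365 and 7737 at sums of 9929, 3234 and 4607. At 2.5 ppm it read 8264 at the highest sum, 16797, and 6591 to 10247 on the other 3 arrays. After 28 d of EE2 all 4 sums were between 15847 and 18089, and Hamp read 4083 to 5748. These values were noticed after the data had been seen and no relation was tested.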
